A study of Mus musculus with 15 samples.

Results

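The genes described here mark the mural cells of blood vessels, which are the contractile smooth muscle cells of arterioles and the pericytes of capillaries. Of 9 genes listed by symbol (Rgs5, Pdgfrb, Cspg4, Notch3, Abcc9, Myh11, Acta2, Tagln and Cnn1), 8 had a row among the 14272 named genes of the deposited table, and all 8 passed the filter on low values. Cnn1, which encodes the actin-binding protein calponin 1, was not analysed here beyond its promoter. The genes were measured by RNA sequencing in the quadriceps of males of the DBA/2J-mdx strain, which lacks dystrophin and models Duchenne muscular dystrophy, so the controls are dystrophic as well. The 15 libraries form 3 groups of 5. The vehicle group was injected intraperitoneally with DMSO 7 times a week. The weekly group was given prednisone, a synthetic glucocorticoid, at 1 mg/kg on 1 day and vehicle on the other 6 days of each week. The daily group was given prednisone at 1 mg/kg 7 times a week. All groups share strain, sex, tissue and age, for which the protocol has 6 months and the sample labels about 7 months. How long mice were treated is not stated in the sources used here. No label says that same-group libraries are from different animals. The p-values therefore reflect the variation among these libraries alone, and it may be technical.

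Mural cells wrap the endothelial tube, set its calibre and steady the vessel wall. Endothelial cells recruit them by releasing PDGF-B, which binds the receptor encoded by Pdgfrb, and hold their identity through Jagged ligands, which bind the receptor encoded by Notch3. Smooth muscle cells carry a contractile apparatus of Myh11, Acta2, Tagln and calponin, whose genes are classical targets of serum response factor and its cofactor myocardin. In pericytes the same contractile genes are usually low, and Rgs5, Cspg4, Abcc9 and its partner Kcnj8 are the common markers. No single one of these genes is exclusive to mural cells: Acta2 is also expressed by myofibroblasts, Pdgfrb by fibroblasts, Cspg4 by glial precursors, and Abcc9 by skeletal muscle fibres.

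Depth was between 2780768 and 11052552 reads per library, and values are CPM, the reads of a gene scaled to the same library total. The tissue label was borne out by the fibre markers (Ckm, Acta1, Myh4, Myh1, Myh2, Ttn, Mb and Actn3), which together held 133985 to 260805 CPM in every library. A pair of libraries stood apart from their groups. In weekly 4, the shallowest library, the mitochondrial ribosomal RNA gene mt-Rnr2 held 0.570% of reads against 6.23% to 9.44% in the other weekly libraries, and Col1a1 stood at 7723 CPM against 578 to 864. In daily 3, Gm26924 held 20.6% and Lars2 7.80% of reads, against at most 3.03% and 1.62% in the other daily libraries. Vehicle libraries differed from each other far less than treated ones did, with a chi-square per degree of freedom of 1.50 to 2.02 between pairs, against 19.4 to 89.4 within the weekly and 4.63 to 212 within the daily group. For the vehicle libraries this spread was not far above what the counting of reads alone gives. No label or test here tells whether they are separate samples or repeats of a single one. Since library composition differed between groups, each change is given on the deposited scale and, where the scaling matters, after TMM scaling, a trimmed mean of ratios between libraries. The median change of all 14059 tested genes was 0.17 (log2) for weekly over vehicle, -0.08 for daily over vehicle and -0.24 for daily over weekly, and it was 0.01, 0.00 and 0.01 after TMM scaling.

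The proximal promoters of Rgs5, Cspg4 and Acta2, 3 of the genes called against vehicle below, are shown for reference. Myh11 was called as well, but its promoter was not among those available. Each line gives the 250 bases before the annotated start, 5′ to 3′ on the coding strand, from RefSeq (GRCm38.p6): Rgs5 at chr1:169655251-169655500 (plus strand), Cspg4 at chr9:56864854-56865103 (plus strand) and Acta2 at chr19:34255374-34255623 (minus strand). In the GENCODE gene models, Acta2 begins at 34255590 and Cspg4 at 56865033, inside these windows, so positions given here hold only for the RefSeq starts. Capitals in the Acta2 line mark matches to the motifs described after the sequences.
Rgs5: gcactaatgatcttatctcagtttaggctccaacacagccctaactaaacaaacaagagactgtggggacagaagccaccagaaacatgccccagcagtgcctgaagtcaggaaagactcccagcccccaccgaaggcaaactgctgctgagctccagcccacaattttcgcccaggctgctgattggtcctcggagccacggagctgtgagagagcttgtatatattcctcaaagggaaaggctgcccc
Cspg4: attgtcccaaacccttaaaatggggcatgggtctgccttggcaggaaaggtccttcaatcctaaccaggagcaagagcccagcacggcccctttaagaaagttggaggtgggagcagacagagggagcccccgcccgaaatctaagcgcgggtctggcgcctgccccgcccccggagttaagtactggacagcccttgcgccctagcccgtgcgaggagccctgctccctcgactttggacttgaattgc
Acta2: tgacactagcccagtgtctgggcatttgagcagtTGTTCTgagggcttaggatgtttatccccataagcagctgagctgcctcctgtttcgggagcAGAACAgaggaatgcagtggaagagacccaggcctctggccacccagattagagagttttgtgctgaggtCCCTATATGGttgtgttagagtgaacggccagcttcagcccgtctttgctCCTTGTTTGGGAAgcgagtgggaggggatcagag

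RefSeq promoters of 6 of the 9 genes (Rgs5, Acta2, Cspg4, Notch3, Cnn1 and Abcc9) were searched on both strands. Their windows ran from 250 bases before to 50 bases after the start. The motifs were the CArG box bound by serum response factor, the TATA motif TATAAA, the letters TGGGAA (the core of the site of RBPJ, the DNA-binding partner of Notch) and the letters AGAACA (a short element bound by the glucocorticoid receptor). A strict CArG box was found in 0 of the 6 windows, against 1.63% of all 32851 promoters in the table. When 1 inner base of the box was allowed to be other than A or T, a form added after the sequences were seen, the Acta2 window held a pair of matches, which begin 84 and 34 bases before the start, and 9.98% of all promoters held at least 1. The Acta2 window also held TGGGAA, which overlaps the second of these boxes, and AGAACA on each strand, beginning 216 and 154 bases before the start. Abcc9 held TGGGAA, a motif present in 25.6% of promoters, and AGAACA was present in 19.0%. The windows of Rgs5, Cspg4, Notch3 and Cnn1 held none of these letters, including TATAAA, which 13.6% of promoters hold. A match is a description of the letters and not a mapped site.

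The mural genes did not move as a block. In weekly against vehicle, Cspg4, Acta2 and Myh11 rose while Rgs5 lay lower without passing the test on the deposited scale, and Tagln, Pdgfrb, Notch3 and Abcc9 did not pass. In daily against vehicle, Rgs5 fell and none of the other 7 passed. With limma and Benjamini-Hochberg adjustment over all 14059 genes, 3 of 8 were called higher and 0 lower in weekly against vehicle, where 6.99% of all genes were called higher and 1.07% lower. After TMM scaling 3 were called higher and 1 lower, Rgs5, against 5.73% and 4.18% of all genes. In daily against vehicle 0 were called higher and 1 lower, on either scale (3 had an unadjusted p under 0.05, all lower, on the deposited scale), against 1.76% and 2.13% of all genes (5.59% and 3.48% after TMM scaling). For counts at an unadjusted p, here and below, no share of all genes is given, so they cannot be set against a background. In daily against weekly 0 were called higher and 3 lower (Cspg4, Acta2 and Myh11), against 0.484% and 8.24% of all genes. After TMM scaling Myh11 alone was called there, where 2.06% of all genes were called higher and 2.65% lower. Without weekly 4 and daily 3, a setting added after seeing the data, 3 of 8 were higher and 1 lower (Rgs5) in weekly, 1 was lower (Rgs5) in daily against vehicle, and 2 were lower (Myh11 and Tagln) in daily against weekly. The shares of all genes were then 20.3% higher and 3.63% lower in weekly, 6.36% lower in daily against vehicle and 11.7% lower in daily against weekly. In the last pair of comparisons 1535 and 420 of 13936 genes were called higher, none of them a mural gene of the 8. The median change of the 8 genes was 0.17, -0.23 and -0.47 in the same order, beside 0.17, -0.08 and -0.24 for all genes. The comparisons against vehicle share the 5 vehicle libraries. Because this is whole tissue, fewer cells of a type and less RNA per cell cannot be told apart.

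**Figure D1:**
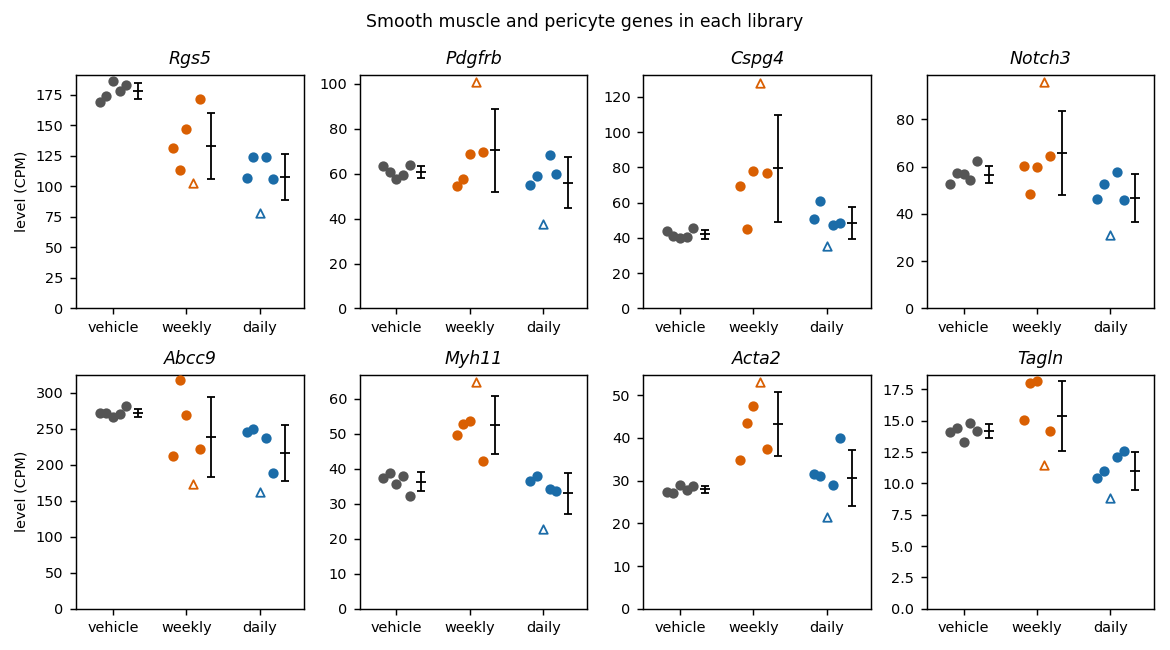
Level of each gene in every library (CPM, linear axes from 0; points are libraries, open triangles are weekly 4 and daily 3, bars are group mean and SD, n = 5). Rgs5 runs from 169 to 186 in vehicle and from 78.1 to 124 in daily libraries, whereas all 5 weekly libraries lie above all vehicle libraries for Myh11 and Acta2.

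Rgs5 encodes a regulator of G-protein signalling that shortens the response to vasoconstrictor receptors, and its transcript is among the most used markers of pericytes. In vehicle libraries it stood at 169, 174, 186, 178 and 183 CPM. In daily libraries it stood at 107, 124, 78.1, 124 and 106 CPM. The highest daily library was well below the lowest vehicle library, so the groups did not overlap. Against vehicle the daily level fell by 0.74 on the log2 scale (SE 0.15, 95% interval -1.05 to -0.43, limma adjusted p = 0.00472, lower in 5 of 5 libraries), from 178 ± 7.00 to 108 ± 18.8 CPM (mean ± SD, n = 5). After TMM scaling the fall was -0.65 (adjusted p = 0.00129), and the 5 daily libraries then lay between 107 and 122. An exact two-sided permutation test of the same difference gave p = 0.00794, the smallest that 5 against 5 libraries allow. It belongs to a family of 24 such tests (8 genes, 3 comparisons). Here and throughout, these tests and the lack of overlap with vehicle treat the vehicle libraries as separate samples, which was not tested. If the vehicle libraries are repeats of a single sample, both overstate the evidence. Without daily 3 the log2 change was -0.63 (limma adjusted p = 0.00563). Averaging the vehicle libraries into a single one, which leaves 1 library in that arm, ended this call (adjusted p = 1.000) and every other call of the 8 genes against vehicle.

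The weekly libraries held Rgs5 at 131, 113, 147, 103 and 171 CPM. Weekly 5 alone reached the vehicle range, and the mean was 133 ± 27.3 CPM (SD, n = 5). The log2 change against vehicle was -0.44 (SE 0.15, 95% interval -0.75 to -0.13), which did not pass with limma on the deposited scale (unadjusted p = 0.00753, adjusted p = 0.0706). It was -0.62 after TMM scaling (adjusted p = 0.00218), where all 5 weekly libraries (85.9 to 147) lay below all 5 vehicle libraries (172 to 192). The count tests on recovered reads called it as well (adjusted p = 0.00230 with edgeR and 7.17e-06 with DESeq2). Over 31 alternative settings it was called in 13. Leaving out weekly 5 gave -0.54 (limma adjusted p = 0.0409), leaving out weekly 4 gave -0.35 (0.0993), leaving out daily 3 gave -0.44 (0.0190), and leaving out weekly 4 with daily 3 gave -0.35 (0.00990). Rgs5 was the only gene of the 8 called lower in both comparisons against vehicle after TMM scaling, as 1.65% of all tested genes were (0.583% on the deposited scale, where Rgs5 was not among them).

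**Figure D2:**
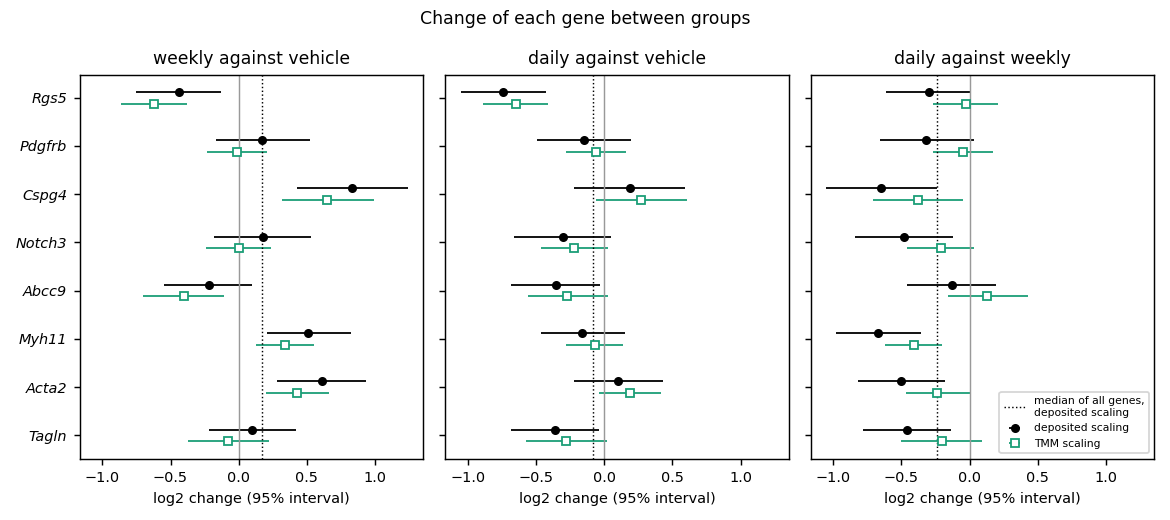
Log2 change of each gene with its 95% interval in the 3 comparisons, on the deposited scale (black dots) and after TMM scaling (green squares); the dotted line is the median of all 14059 genes on the deposited scale. Rgs5 is at -0.44 and -0.74 against vehicle, whereas Cspg4 is at 0.83 in weekly and 0.19 in daily.

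Cspg4 encodes the proteoglycan NG2 on the pericyte surface, which acts as a co-receptor for growth factors. Its level in vehicle libraries was 43.7, 41.1, 39.8, 40.3 and 45.4 CPM. In weekly libraries the level was 69.5, 45.1, 78.0, 128 and 76.6 CPM. Weekly 4 was far above the rest and weekly 2 lay inside the vehicle range, so the groups overlapped. Against vehicle Cspg4 rose in weekly libraries by 0.83 on the log2 scale (SE 0.19, limma adjusted p = 0.0102), from 42.1 ± 2.41 to 79.4 ± 30.0 CPM (mean ± SD, n = 5). The rise was 0.65 after TMM scaling (adjusted p = 0.0134), and on the deposited scale 0.64 without weekly 4 (adjusted p = 0.00299). After TMM scaling without weekly 4 it was 0.49 (adjusted p = 0.00306). Daily libraries stood at 50.5, 60.9, 35.5, 47.3 and 48.6 CPM, with daily 3 below all vehicle libraries and the other 4 above them. The log2 change in daily against vehicle was 0.19 (SE 0.19, 95% interval -0.22 to 0.59, limma adjusted p = 0.686).

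Pdgfrb encodes the receptor by which mural cells are recruited. Vehicle libraries held it at 63.4, 60.6, 57.6, 59.3 and 63.7 CPM. Weekly libraries held it at 54.6, 57.5, 68.9, 101 and 69.8 CPM, and daily libraries at 55.0, 59.2, 37.5, 68.4 and 60.0 CPM. The treated libraries lay on either side of the vehicle range, with weekly 4 at the top and daily 3 at the bottom of all 15. The log2 change was 0.17 in weekly (95% interval -0.17 to 0.52, limma adjusted p = 0.544) and -0.15 in daily (adjusted p = 0.714). After TMM scaling the weekly change was -0.01, so even its sign depends on the scaling.

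Notch3 encodes the mural Notch receptor. Its level was 52.5 to 62.3 CPM in vehicle (median 56.7), 48.3 to 95.7 in weekly (median 60.1) and 31.0 to 57.6 in daily libraries (median 46.4). Weekly 4 and daily 3 were again the extremes, and the groups overlapped. The log2 change was 0.18 in weekly (95% interval -0.18 to 0.53, limma adjusted p = 0.543, sign turned after TMM scaling) and -0.30 in daily (-0.66 to 0.05, adjusted p = 0.392). Abcc9 encodes SUR2, the regulatory subunit of ATP-sensitive potassium channels. Vehicle libraries held it at 272, 272, 266, 270 and 281 CPM, and daily libraries at 245, 249, 162, 237 and 188 CPM. All 5 daily libraries lay below all 5 vehicle libraries, on both scales. The daily change was -0.35 (SE 0.16) with limma adjusted p = 0.252, so the gene was not called, although the exact permutation test gave p = 0.00794. In weekly libraries Abcc9 ran from 173 to 317 CPM, around the vehicle range, and changed by -0.22 (95% interval -0.55 to 0.10, limma adjusted p = 0.396).

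Acta2 encodes smooth muscle alpha-actin, the thin filament of vascular smooth muscle. Vehicle libraries held it at 27.3, 27.2, 29.0, 27.9 and 28.7 CPM. Weekly libraries held it at 34.8, 43.6, 47.5, 53.2 and 37.5 CPM. Every weekly library was above every vehicle library. Against vehicle Acta2 rose in weekly libraries by 0.61 on the log2 scale (SE 0.15, limma adjusted p = 0.0182), from 28.0 ± 0.821 to 43.3 ± 7.43 CPM (mean ± SD, n = 5). The rise was 0.43 after TMM scaling (adjusted p = 0.0200), where the groups still did not overlap (exact permutation p = 0.00794 on either scale). Leaving out weekly 4 gave 0.53 (limma adjusted p = 0.0156), whereas leaving out weekly 3 gave 0.57 and ended the call (adjusted p = 0.0538). Centring each library on its median gave 0.36 (0.0456). Daily libraries stood at 31.6, 31.2, 21.5, 29.1 and 40.0 CPM, with 4 above the vehicle range and daily 3 below it. The log2 change in daily against vehicle was 0.10 (95% interval -0.22 to 0.43, limma adjusted p = 0.786).

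Myh11 encodes the smooth muscle myosin heavy chain, the marker most restricted to smooth muscle. Vehicle libraries held it at 37.4, 38.7, 35.5, 37.9 and 32.1 CPM, and weekly libraries at 49.5, 52.7, 53.5, 64.7 and 42.1 CPM. All weekly libraries lay above all vehicle libraries. Myh11 rose in weekly libraries by 0.51 (log2, SE 0.15, limma adjusted p = 0.0348), and by 0.34 after TMM scaling (adjusted p = 0.0397), where weekly 5 fell inside the vehicle range. The call was lost when any of the 5 vehicle libraries was left out (adjusted p = 0.0629 to 0.0979) and without weekly 3 (0.0771), but not without weekly 4 (0.44, 0.0445). With each library centred on its median the rise was 0.27 and was not called (0.109). Daily libraries held 36.4, 37.8, 22.9, 34.1 and 33.5 CPM. Apart from daily 3 these lay within the vehicle range, and the daily change was -0.16 (95% interval -0.46 to 0.15, limma adjusted p = 0.648).

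Tagln encodes transgelin (SM22-alpha), which bundles actin in smooth muscle. Vehicle libraries held it at 14.1, 14.4, 13.3, 14.8 and 14.2 CPM, weekly libraries at 15.1, 18.0, 18.2, 11.5 and 14.2 CPM, and daily libraries at 10.4, 11, 8.83, 12.1 and 12.6 CPM. The weekly values lay around the vehicle range, and the daily values were all below it. The weekly change was 0.10 (log2, 95% interval -0.22 to 0.42, limma adjusted p = 0.735) and was -0.08 after TMM scaling. The daily change was -0.36 (SE 0.16, limma adjusted p = 0.236, exact permutation p = 0.00794). With 32 to 199 reads per library Tagln was the thinnest of the 8, and 62.4% of its exon bases overlap Gm48529 on the opposite strand. The sources used here do not state whether counting used the strand, so reads of the pair cannot be told apart. Counted over the 8 genes, groups did not overlap in 2 genes higher and 0 lower in weekly against vehicle (11.8% and 1.66% of all genes) and in 0 higher and 3 lower in daily against vehicle (2.45% and 8.82%). The 3 were Rgs5, Abcc9 and Tagln, named as a group after their values were seen.

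The regimens were also compared with each other, which is the test of whether a gene responded differently to weekly and daily dosing. Myh11 was lower in daily than in weekly libraries by -0.67 (log2, SE 0.15, limma adjusted p = 0.00875), with all 5 daily libraries below all 5 weekly ones, and by -0.41 after TMM scaling (adjusted p = 0.0244). It was the 1 gene of the 8 whose groups did not overlap, against 6.98% of all genes in that direction, on the deposited scale. After TMM scaling 0 of the 8 separated, with Myh11 at 33.6 to 36.8 in daily and 36.1 to 53.9 in weekly libraries. Acta2 was lower by -0.50 (adjusted p = 0.0465) and Cspg4 by -0.65 (adjusted p = 0.0419). Neither passed after TMM scaling, at -0.24 (0.245) and -0.38 (0.193). Both calls were also lost with edgeR (0.263 and 0.144), DESeq2 (0.278 and 0.113) and the replicate block (0.0726 and 0.0524), and when any of the vehicle libraries, weekly 3, weekly 5, daily 1, daily 3 or daily 4 was left out, so that Myh11 alone was then called. Without weekly 4 and daily 3, Myh11 was at -0.47 (limma adjusted p = 0.00168) and Tagln at -0.48 (0.00661), while Acta2 (-0.31, 0.0612) and Cspg4 (-0.35, 0.0769) did not pass. For Rgs5 the regimens differed by -0.30 (95% interval -0.61 to 0.01, limma adjusted p = 0.190), and by -0.03 after TMM scaling (0.912). The remaining changes on the deposited scale were -0.48 for Notch3, -0.46 for Tagln, -0.32 for Pdgfrb and -0.13 for Abcc9, and none passed (limma adjusted p = 0.0772, 0.0640, 0.211 and 0.605).

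Ratios between genes of the same library depend on how libraries are scaled only through the 0.5 CPM added to each value, which weighs most on low genes. They were computed on the deposited scale and were added after the values had been seen. Each gene was divided by each other gene on the log2 scale, which gives 28 pairs that share genes and so are not independent. The log2 ratio of Rgs5 to Acta2 was 2.65 ± 0.02 in vehicle (SD, n = 5), 1.60 ± 0.47 in weekly and 1.80 ± 0.26 in daily libraries. That of Rgs5 to Cspg4 was 2.07 ± 0.11, 0.80 ± 0.64 and 1.14 ± 0.14 in the same order. Rgs5 thus stood lower relative to these partners in every treated library than in any vehicle library. Relative to Myh11 the Rgs5 ratio went from 2.28 ± 0.15 to 1.32 ± 0.50 and 1.70 ± 0.11, and relative to Pdgfrb from 1.54 ± 0.10 to 0.93 ± 0.52 and 0.95 ± 0.11. Against vehicle, Rgs5 was lower without overlap relative to 5 of the 7 others in weekly (not Tagln or Abcc9) and to 7 of 7 in daily libraries. By its own level Rgs5 had already separated daily from vehicle libraries, and Acta2, Cspg4 and Myh11 had been called higher in weekly. These counts therefore partly restate those changes. The share of all genes relative to which Rgs5 was lower was not computed.

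Over all 28 pairs, 14 separated weekly from vehicle libraries without overlap, 12 separated daily from vehicle, and 0 separated daily from weekly. Among all pairs of tested genes the shares were 9.73%, 17.8% and 5.25%. These shares are for either direction and for any pair, whether or not a gene of it had separated by itself. Of the 12 daily pairs, 7 held Rgs5. Within the contractile genes, the ratio of Acta2 to Tagln went from 0.96 ± 0.09 in vehicle to 1.47 ± 0.40 in weekly and 1.42 ± 0.18 in daily libraries, in both cases without overlap. The ratio of Myh11 to Acta2 overlapped throughout, at 0.37 ± 0.14, 0.28 ± 0.14 and 0.11 ± 0.21. Between the receptors, the ratio of Cspg4 to Notch3 went from -0.42 ± 0.10 to 0.23 ± 0.20 in weekly libraries without overlap, and was 0.06 ± 0.20 in daily libraries. The ratio of Pdgfrb to Notch3 differed little, at 0.11 ± 0.10, 0.10 ± 0.15 and 0.26 ± 0.08.

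**Figure D3:**
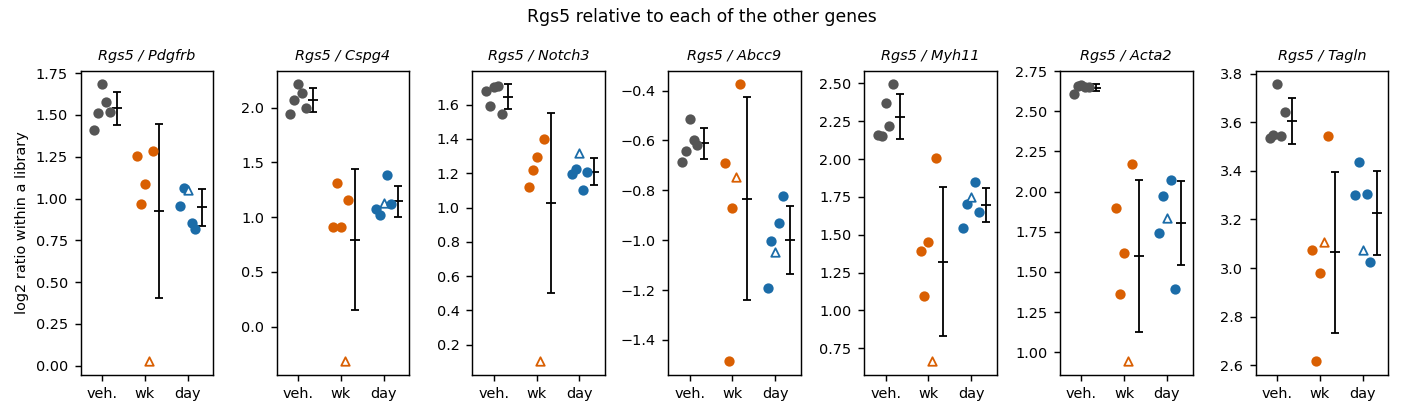
Log2 ratio of Rgs5 to each of the other 7 genes within a library (axes differ between panels and do not start at 0; points are libraries, open triangles are weekly 4 and daily 3, bars are mean and SD, n = 5). In the Rgs5 to Acta2 panel the vehicle libraries lie at 2.61 to 2.66 and every treated library lies lower.

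Levels can be compared between genes only per length, here as CPM per kilobase of exon. In vehicle libraries Rgs5 (39.1 ± 1.54, SD, n = 5) and Abcc9 (32.5 ± 0.653) were the highest, followed by Acta2 (12.7 ± 0.374), Pdgfrb (11.1 ± 0.484), Tagln (7.13 ± 0.284), Notch3 (7.00 ± 0.461), Myh11 (4.78 ± 0.349) and Cspg4 (3.53 ± 0.202). Tagln and Notch3 did not differ beyond their spread. Kcnj8, the channel partner of Abcc9, stood at 3.13 ± 0.433. Abcc9 is also expressed by skeletal muscle fibres, and their part in its level was not tested. In daily libraries Rgs5 (23.7 ± 4.13) and Abcc9 (25.8 ± 4.66) could no longer be ordered. In weekly libraries Acta2 (19.7 ± 3.39) was next below that pair (29.3 ± 6.00 for Rgs5 and 28.5 ± 6.63 for Abcc9), and Tagln (7.75 ± 1.41), Notch3 (8.12 ± 2.20), Myh11 (6.91 ± 1.08) and Cspg4 (6.65 ± 2.52) lay within each other's spread. Acta1, the skeletal muscle actin, stood at 11124 ± 240 per kilobase in vehicle libraries. No stretch of 50 bases of the Acta2 transcript occurs in an Acta1 transcript, but 7 of 1986 occur in other genes, Actg1 among them. For Myh11 26 of 6500 occur in Myh9 or Myh10. Alignment with mismatches was not tested.

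The list of other contractile genes and targets of serum response factor held 27 genes, of which 24 were tested. In weekly against vehicle 0 were called in either direction with limma (median 0.13, beside 0.17 for all genes), although 6 higher and 2 lower had an unadjusted p under 0.05. After TMM scaling 0 were called higher and 3 lower (the same counts with edgeR, and 1 and 4 with DESeq2). Without weekly 4 and daily 3 there were 4 higher and 2 lower, where 20.3% and 3.63% of all genes were called. Tpm2, a tropomyosin, was closest (0.53, adjusted p = 0.0512), followed by Vcl, the adhesion protein vinculin (0.50, 0.0864), and both lay above all vehicle libraries in all 5 weekly libraries. Mylk, the kinase that triggers smooth muscle contraction, was at 0.08 and Smtn, smoothelin, at 0.09 (adjusted p = 0.732 and 0.738). Srf itself was at 0.23 (0.387). On the deposited scale with all libraries, the rises of Acta2 and Myh11 thus had no called rise beside them on this list. However, the list is not a readout of smooth muscle alone. Vehicle means were 5077 CPM for Tpm1 and 1755 CPM for Tpm2, against 28.0 for Acta2 and 36.3 for Myh11 (not per length). The part of the fibres in these levels was not tested.

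In daily against vehicle 2 contractile genes fell and 0 rose with limma, where 2.13% of all genes were called lower and 1.76% higher. At an unadjusted p under 0.05 there were 2 higher and 5 lower. The median change was -0.10, beside -0.08 for all genes. After TMM scaling 1 rose and 3 fell, and without weekly 4 and daily 3 there were 4 higher and 4 lower. In the latter setting 1535 of 13936 genes were called higher and 6.36% lower. Lmod1, leiomodin 1, which nucleates smooth muscle actin filaments, stood between 8.52 and 9.18 CPM in vehicle and between 2.93 and 6.10 CPM in daily libraries, without overlap (-0.87, SE 0.19, limma adjusted p = 0.00810). Pdlim3, a Z-disc protein abundant in skeletal fibres too, fell by 0.55 (adjusted p = 0.0464). Myl9, the regulatory light chain of smooth muscle myosin, was at -0.74 (adjusted p = 0.0756) and passed after TMM scaling (-0.67, 0.0463). In daily against weekly 3 fell (Myl9 by 0.85, Cald1 by 0.56 and Csrp1 by 0.66, limma adjusted p = 0.0276, 0.0341 and 0.0374), and 0 of these passed after TMM scaling. Of all genes 8.24% were called lower there on the deposited scale.

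The list of pericyte and mural receptors, channels and related genes held 24 genes, of which 21 were tested. In weekly against vehicle 3 rose and 0 fell, where 6.99% of all genes were called higher and 1.07% lower (median 0.00, beside 0.17 for all genes). Steap4, a metalloreductase, stood at 42.2 to 46.9 CPM in vehicle and at 53.8, 76.9, 115, 84.9 and 150 CPM in weekly libraries (1.01, SE 0.19, limma adjusted p = 0.00206). Mcam, the adhesion molecule CD146 shared by pericytes and endothelium, stood at 12.7 to 16.7 CPM in vehicle and at 21.9, 26.6, 35.8, 38.1 and 39.9 CPM in weekly libraries (1.08, SE 0.22, adjusted p = 0.00361). Rasl12, a small GTPase, went from 5.58 ± 0.752 to 14.1 ± 6.84 CPM (1.17, SE 0.26, adjusted p = 0.00738). For all 3 the weekly and vehicle libraries did not overlap, and all 3 passed after TMM scaling and were lower in daily than in weekly libraries (-1.09, -0.87 and -1.42, adjusted p = 0.00147, 0.0187 and 0.00212). The same 3 of 21 rose without weekly 4 and daily 3, where 20.3% of all genes were called higher. Steap4 is also expressed by adipocytes, whose markers were higher in weekly libraries too, and their part in its level was not tested. Nor was the part of adipocytes in the levels of Rasl12 and Mcam tested.

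Against vehicle 1 gene of this list fell in daily libraries and 0 rose with limma, where 2.13% of all genes were called lower and 1.76% higher. At an unadjusted p under 0.05 there were 7 lower and 0 higher, a count without a background share. The median change was -0.32, beside -0.08 for all genes. After TMM scaling 3 fell, and without weekly 4 and daily 3 there were 1 higher (Mcam) and 4 lower. In the latter setting 1535 of 13936 genes were called higher and 6.36% lower. The gene called with all libraries on the deposited scale was Kcnj8, the pore-forming Kir6.1 subunit that pairs with the Abcc9 product in vascular potassium channels. Its level was 6.94 to 9.83 CPM in vehicle and 3.88, 3.94, 1.39, 5.23 and 3.88 CPM in daily libraries, without overlap. The change was -1.11 (SE 0.25, limma adjusted p = 0.0122), and -1.04 after TMM scaling (0.00402). In weekly libraries it ran from 4.25 to 8.28 CPM and was at -0.36 (adjusted p = 0.395). Beside Kcnj8, Gucy1b3, a subunit of the nitric oxide receptor, was at -0.72 (0.0559) and passed after TMM scaling (-0.64, 0.0451).

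The list of PDGF and Notch genes held 19 genes, of which 18 were tested. In weekly against vehicle 4 rose, where 6.99% of all genes were called higher (median 0.29, beside 0.17). Pdgfb, the ligand of the Pdgfrb receptor, stood at 16.5 to 17.9 CPM in vehicle and 19.6 to 33.1 CPM in weekly libraries (0.53, limma adjusted p = 0.0497, and 0.36 with 0.0699 after TMM scaling). The ligand Jag2 was at 0.54 (0.0232, and 0.0552 after TMM scaling), and the receptors Notch1 and Notch4, which endothelial cells express, were at 0.58 (0.0418) and 0.78 (0.00771) and passed on both scales. In daily against vehicle Notch4 rose as well, from 20.0 ± 1.80 to 34.3 ± 6.17 CPM (mean ± SD, n = 5; 0.74, limma adjusted p = 0.0155). Heyl, a mural target of Notch3, fell there from 7.43 ± 1.40 to 3.73 ± 1.47 CPM (-0.98, SE 0.26, adjusted p = 0.0327, and 0.0154 after TMM scaling), with all 5 daily libraries below all vehicle libraries. In weekly libraries Heyl was at -0.16 (0.744), Jag1 at 0.50 (0.0800) and Hey1 at 0.57 (0.160). No gene of this list was called in daily against weekly (0 of 18 with limma on either scale, edgeR and DESeq2, while 5 lower had an unadjusted p under 0.05). Without weekly 4 and daily 3 the weekly count was 5 higher and 0 lower, where 20.3% and 3.63% of all genes were called. The daily count was then 2 higher and 1 lower, where 1535 of 13936 genes were called higher and 6.36% lower.

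**Figure D4:**
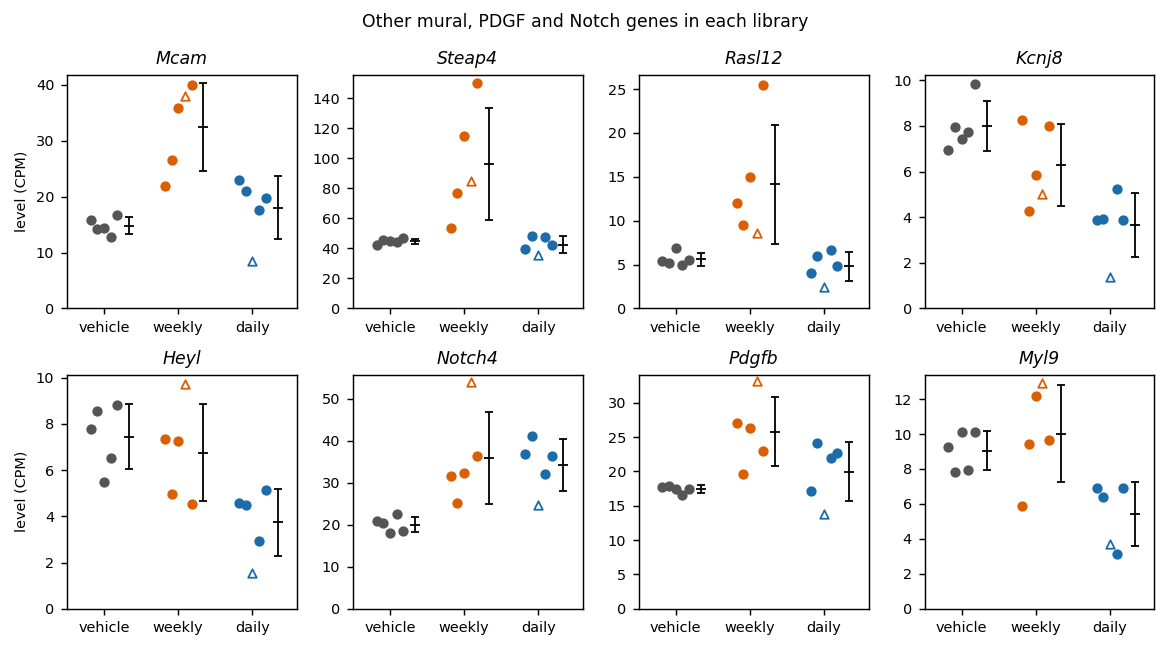
Level of 8 related mural, PDGF and Notch genes in every library (CPM, linear axes from 0; points are libraries, open triangles are weekly 4 and daily 3, bars are mean and SD, n = 5). Mcam, Steap4, Rasl12, Notch4 and Pdgfb lie above all vehicle libraries in all 5 weekly libraries, and Kcnj8, Heyl and Myl9 lie below them in all 5 daily libraries.

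Markers of other cell types were summed beside these genes. The 13 endothelial markers held 357 to 374 CPM in vehicle, 370 to 599 in weekly and 243 to 392 in daily libraries, and with limma 0 were called against vehicle in either regimen, while 5 were lower in daily than in weekly (2 after TMM scaling). In weekly libraries 8 of them had an unadjusted p under 0.05, all higher. Without weekly 4 and daily 3, limma called 8 higher in weekly and 3 higher in daily against vehicle. In that setting, here and for the markers below, 20.3% of all genes were called higher and 3.63% lower in weekly. In daily against vehicle 1535 of 13936 genes were then called higher and 6.36% lower. With all libraries, edgeR called 0 higher in weekly and 1 in daily, and DESeq2 1 and 1. The 12 fibroblast markers held 1607 to 1804 CPM in vehicle, 1720 to 19039 in weekly and 1583 to 2903 in daily libraries, with 1 called (Col1a1, higher in weekly) and weekly 4 as the extreme. After TMM scaling Col1a1 was not called and 2 others, Dcn and Fap, were lower in weekly. Without weekly 4 and daily 3, 2 fibroblast markers were higher and 2 lower in weekly, and 4 higher and 3 lower in daily against vehicle (with all libraries, edgeR called 2 and 2 in weekly and 0 in daily, and DESeq2 0 and 2 in weekly and 1 and 1 in daily). Col1a1 stood at 395 to 439 CPM in vehicle and 631 to 1123 CPM in daily libraries, without overlap, and was not called there (1.13, limma adjusted p = 0.190). Weekly 4 was also the highest library for Pdgfrb, Cspg4, Notch3, Myh11 and Acta2. The 8 adipocyte markers held 655 to 720 CPM in vehicle, 805 to 3031 in weekly and 261 to 534 in daily libraries, with 5 called higher in weekly (3 after TMM scaling), 4 lower in daily and 7 lower in daily against weekly. The 8 macrophage markers held 413 to 452, 180 to 1618 and 255 to 522 CPM in the same order, with 0 called against vehicle by limma, edgeR or DESeq2 and 0 at an unadjusted p under 0.05. Without weekly 4 and daily 3, 0 macrophage markers were called higher and 3 lower in weekly, and 1 higher and 1 lower in daily against vehicle. None of the 13 endothelial, 12 fibroblast, 8 adipocyte and 8 macrophage markers was at 0 in any library, and their part in the levels of the mural genes was not tested. Among all genes, limma called 6.99% higher in weekly against vehicle (5.73% after TMM scaling). It called 2.13% lower in daily against vehicle and 8.24% lower in daily against weekly. The 3 red cell markers tested held 79.1 to 84.8 CPM in vehicle, 43.5 to 78.3 in weekly and 23.4 to 45.1 in daily libraries, with 2 called lower in daily against vehicle and, after TMM scaling, in weekly too. The 8 fibre markers held 228152 to 233150, 189460 to 260805 and 133985 to 213488 CPM, the 6 Schwann markers 52.8 to 57.8, 57.0 to 91.1 and 47.6 to 76.6 CPM, and the 3 satellite cell markers 43.7 to 49.3, 49.3 to 69.3 and 33.1 to 53.5 CPM.

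Each gene was finally set beside all 14058 other tested genes by the root mean square distance between centred log2 profiles over the 15 libraries, where a smaller value is a more similar profile. Closest to Abcc9 were Cmya5, Phkb and Ttn (0.08 each), all abundant in skeletal muscle fibres, followed by Ulk2 (0.08) and Capza2 (0.09). Closest to Rgs5 were Fzd4 (0.12), a receptor for Wnt and Norrin, and Rpl37 (0.13), then Hipk2 and Xpo4 (0.14 each) and Rpl32 (0.15). Pdgfrb lay closest to Phldb1 and Limd1 (0.08 each), and Notch3 to Plekhm1, Abca2 and Dgkd (0.10 each). Acta2 lay closest to Arf6 (0.13), Myh11 to Snx3 and Nap1l4 (0.13 each), Tagln to Mrps21 (0.12), and Cspg4 to Cttn and Tha1 (0.16 each). Among the mural genes themselves, Pdgfrb was the 35th nearest profile of Notch3 (0.13) and Myh11 the 95th nearest of Acta2 (0.18). The nearest mural gene to Rgs5 was Abcc9, at rank 765 (0.28), and the farthest was Cspg4, at rank 12040 of 14058. These distances share the depth and composition of the libraries and are given without a test.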

How the data were processed

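The authors deposited a single table of 14806 rows for 15 libraries. Per the labels its values are RPKM. However, 222090 of 222090 deposited values equal a whole number of reads (tolerance 0.01) times a step that is fixed for each library and does not depend on gene length, so the unit was taken as CPM. Total RNA from about 30 mg of muscle entered a stranded kit and was sequenced as 150 bp pairs, per the labels' protocols. The submitters' processing notes name TopHat2 2.1.0, HTSeq and edgeR, and the builds mm10 and GRCm38. The 534 rows without a gene name (0.276% to 0.447% of a library's values) were left out, and 9 columns were empty. A level of 3 reads was worth 0.271 to 1.08 CPM, which covers counting error only.

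Log2(CPM + 0.5) was fitted with limma 3.58.1 (R 4.3.3, empirical Bayes with a trend) over all 15 libraries, with no term but group. Genes needed 1 CPM in 5 libraries (14059 of 14272), and p-values were Benjamini-Hochberg adjusted over all of them, with calls under 0.05. The plan assumed RPKM, and the test was unchanged. Changes on this scale understate those of genes with low values. TMM scaling (edgeR 4.0.16), edgeR's quasi-likelihood test and DESeq2 1.42.0 on recovered reads, other pseudocounts, filters, blocks and left-out libraries were alternatives. Positions come from GENCODE gene models on GRCm38. The fitting code was tested on simulated data. Named genes are the members, the 3 smallest p-values per list and comparison, a short fixed set and the 5 nearest profiles, of which the text gives some. The genes and lists were chosen with earlier results of these data known.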

Additional observations from a re-analysis of the deposited data

Results flagged for a closer look

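In the daily group the lowest value of Myh11, 22.9 CPM in daily 3, lay further from the other 4 libraries than Dixon's test allows. It was 1 flag among 24 sets of 5 libraries (8 genes, 3 groups), where chance gives about 1 in 20. Daily 3 was the lowest daily library for 8 of the 8 genes on the deposited scale, and its TMM factor was 0.652. After TMM scaling Myh11 stood at 35.3 in daily 3, inside the daily range of 33.6 to 36.8. The low value thus belonged to the deposited scale.

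The daily and the weekly effect against the same vehicle libraries differed, by the direct limma test, for Myh11 (daily minus weekly -0.67 on the log2 scale), Acta2 (-0.50) and Cspg4 (-0.65). After TMM scaling the differences were -0.41, -0.24 and -0.38, and only that of Myh11 passed.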

How the results depend on the processing

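Over 31 alternatives for each of 8 genes and 3 comparisons, 630 results kept direction and side of the threshold, 66 lost a call, 20 gained one and 28 turned in sign. No reversed result was a call. In weekly against vehicle, Tagln (0.10) turned to -0.08 after TMM scaling (-0.08 with the replicate block added, -0.10 without daily 3), -0.14 with median centring, -0.02 with edgeR and -0.01 with DESeq2. Pdgfrb (0.17) turned to -0.01 with TMM (-0.01 with the block, -0.11 without weekly 4, -0.03 without daily 3, -0.13 without both), -0.07 with median centring and -0.01 with DESeq2. Notch3 (0.18) turned to -0.0008 with TMM (-0.0008 with the block, -0.11 without weekly 4, -0.02 without daily 3, -0.13 without both), -0.06 with median centring and -0.0038 with DESeq2. In daily against weekly, Abcc9 (-0.13) turned to 0.13 with TMM (0.13 with the block, 0.12 without daily 3), 0.15 with median centring and 0.09 with edgeR and DESeq2, and Pdgfrb (-0.32) to 0.05 with TMM without weekly 4 and 0.07 without both libraries.

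The 3 calls in weekly against vehicle, all higher, became 0 with vehicle libraries averaged and 1 to 4 when single libraries were left out. The count was 1 (Cspg4) without weekly 3, and 4 without weekly 5 or daily 3, where the fourth was Rgs5, called lower. The 1 call in daily against vehicle became 0 with vehicle libraries averaged, 2 with TMM without weekly 4 (Rgs5 and Abcc9) and 3 with TMM without weekly 4 and daily 3 (Tagln added), and stayed 1 when single libraries were left out. The 3 calls in daily against weekly became 1 with TMM, median centring, edgeR, DESeq2, the replicate block, the block with TMM, array weights or TMM without weekly 4, 0 when only the compared groups were fitted, with vehicle libraries averaged or with TMM without daily 3, and 1 to 3 when single libraries were left out (with Notch3 called without weekly 2 and Tagln without weekly 4, both lower). The cause was not tested. Replicate numbers did not pair libraries (correlations -0.03 to 0.15, best with the own number for 4 of 30), and the replicate block ended the calls of Acta2 and Cspg4 in daily against weekly and no other. The counts with weekly 4 and daily 3 left out were chosen after seeing the data. Settings that leave 1 vehicle library assume that it varies like the other groups. Depth limits the genes with few reads, such as Tagln, Kcnj8, Gucy1b3 and Hey1.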
